A study of Mus musculus with 4 samples.

Results

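The genes of the mitochondrial ribosomal proteins were taken as every protein-coding gene in the 4 deposited count tables whose symbol begins with Mrpl or Mrps followed by a digit. This gave 78 genes of 37646 gene rows, and 5 pseudogenes with such a symbol were left out. Of the 78, 51 encode proteins of the large subunit and 26 proteins of the small subunit. Mrps30 and Mrps18a were counted with the large subunit, where their proteins are known to sit. Mrps36 was counted with neither subunit, because its protein is now known as a component of the alpha-ketoglutarate dehydrogenase complex and not of the ribosome. It remains among the 78 genes in all values given for the family. The genes lay on 17 chromosomes, with 11 on chromosome 11, 8 on chromosome 17 and 7 on chromosome 6.

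RNA came from B220+ YFP+ cells sorted live from the spleens of C57BL/6 mice of the genotype YFPstopF/+ Cg1Cre/+, labelled as normal germinal centre B cells. Every mouse had received sheep red blood cells as antigen, and cells were taken 10 days after a second injection that followed the first by 20 days. Cg1Cre places the Cre recombinase under the Ighg1 constant region locus, which is transcribed in activated B cells on their way to class switching. A cell that once expressed Cre keeps YFP, as do its descendants, so the reporter marks a history and not a present state. No label gives the age or sex of the mice or says whether each library came from 1 mouse, so the spread between the 4 libraries of this single group may be partly technical. No second group was present, and the comparisons below are therefore between libraries, between genes and between gene lists.

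Mitochondria carry their own ribosome, which translates only the few mRNAs of the mitochondrial genome, all of them for subunits of the respiratory chain and the ATP synthase. Its rRNAs are transcribed in the organelle, while all of its proteins are encoded in the nucleus, made on cytosolic ribosomes and imported. About its ancestry, one set of its proteins has kin in bacterial ribosomes and another set was acquired in mitochondria. The germinal centre is where antigen-activated B cells divide rapidly and mutate their antibody genes, and respiration is known to be active there.

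The promoters of these genes were examined first, since genes of nuclear-encoded mitochondrial proteins are known to carry sites for the factors NRF1 and GABP. For 69 of the 78 genes, RefSeq promoter windows of the GRCm38.p6 assembly were at hand, each with 250 bases before and 50 bases after the start of transcription. Both strands were searched for exact letters, and in no window of the 69 did the letters of different motifs overlap. The NRF1 letters (GCGCA, any base, then GCGC) were present in 13 windows (18.8%), against 4.77% of all 27025 RefSeq windows of that length. The ETS letters CCGGAAGT, of the kind that GABP binds, were present in 12 (17.4%, against 4.03%). At least 1 of these motifs was present in 24 windows (34.8%, against 8.40%). The YY1 letters AAGATGGC were found in 12 (17.4%, against 2.86%), the GC box GGGCGG in 33 (47.8%, against 36.2%), the E-box CACGTG in 5 (7.25%, against 7.19%) and the TATA letters TATAAA in 4 (5.80%, against 14.2%). The median GC content of the windows was 58.0% for these genes and 52.7% for all windows. A match of letters is a description of the window and does not show that a factor bound there.

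The 120 bases before the start are printed for 5 genes, to show where NRF1 or ETS letters lie. The stretches are from chr11:120484517-120484636 (plus strand), chr11:97315596-97315715 (plus strand), chr7:105811088-105811207 (minus strand), chr9:98601680-98601799 (minus strand) and chr9:105053148-105053267 (plus strand). Capitals mark the NRF1 letters in Mrpl12, Mrpl45 and Mrpl17 and the ETS letters in Mrps22 and Mrpl3, on either strand.
Mrpl12: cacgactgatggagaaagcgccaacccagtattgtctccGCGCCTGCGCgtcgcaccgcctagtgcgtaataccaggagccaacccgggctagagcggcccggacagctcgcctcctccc
Mrpl45: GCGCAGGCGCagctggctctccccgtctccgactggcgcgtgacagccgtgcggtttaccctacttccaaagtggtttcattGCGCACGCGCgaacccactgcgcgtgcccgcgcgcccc
Mrpl17: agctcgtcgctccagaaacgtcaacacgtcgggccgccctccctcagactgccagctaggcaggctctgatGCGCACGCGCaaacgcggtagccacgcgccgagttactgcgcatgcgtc
Mrps22: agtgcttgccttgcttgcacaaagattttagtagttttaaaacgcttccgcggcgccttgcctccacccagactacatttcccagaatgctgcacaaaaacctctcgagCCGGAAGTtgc
Mrpl3: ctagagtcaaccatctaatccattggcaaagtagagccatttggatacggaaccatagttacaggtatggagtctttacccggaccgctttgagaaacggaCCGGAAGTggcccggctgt
Mrpl45 held the NRF1 letters at 2 places in this stretch. The genes with the motif did not lie at one level in TPM. Mrpl12 was among the highest of the family (103 ± 16.5 TPM, SD, n = 4) and Mrpl17 among the lowest (8.79 ± 0.664 TPM). The gap depends on length, as the principal transcripts have 1316 bases (Mrpl12) and 7300 bases (Mrpl17). Without division by length, Mrpl12 stood at 74.9 ± 7.92 CPM and Mrpl17 at 35.7 ± 2.81 CPM. Nrf1 mRNA itself stood at 62.3 ± 10.1 TPM, Gabpa at 26.3 ± 4.80, Gabpb1 at 35.9 ± 5.47 and Yy1 at 40.3 ± 7.35. The coactivator gene Ppargc1a was nearly undetected (0.107 ± 0.0394 TPM), its relatives Ppargc1b (8.63 ± 0.798 TPM) and Pprc1 (32.1 ± 7.94 TPM) were present, and Myc, a driver of cell growth, stood at 387 ± 97.4 TPM.

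Many of these genes share an upstream region with a neighbour transcribed the other way. By GENCODE M21, 22 of the 78 (28.2%) started within 1000 bases of a protein-coding gene in the head-to-head arrangement, against 7.90% of 18712 protein-coding genes. The closest partners were Apba3 (26 bases from Mrpl54), Helq (29 bases from Mrps18c) and Eme2 (29 bases from Mrps34). Some partners, named here after the list was seen, are genes of the same organelle. Mrpl46 and Mrps11, which encode proteins of different subunits, started 30 bases apart. Mrps12 started 232 bases from Sars2, the mitochondrial seryl-tRNA synthetase, and Mrpl43 started 116 bases from Twnk, the helicase that replicates mitochondrial DNA.

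Levels are given as TPM, the deposited read counts divided by the length of each gene's principal GENCODE transcript and scaled to one common total per library. The libraries held 13777954 to 14629025 counts, so that a gene with no read could stand at up to 0.205 to 0.218 CPM (3 counts as a share of the library). The genes of the family together took 0.248%, 0.221%, 0.268% and 0.252% of the counts of libraries 1 to 4 (mean 0.247% ± 0.0198). The exact 95% binomial interval was 0.245 to 0.25% in library 1, 0.218 to 0.223% in library 2, 0.266 to 0.271% in library 3 and 0.25 to 0.255% in library 4, for counting error only. Library 2 was lowest and library 3 highest. Mitochondrial-genome transcripts took 20.6%, 23.3%, 18.1% and 19.8% of the counts and immunoglobulin genes 5.25%, 5.48%, 2.35% and 4.25%. With both sets taken out of the total, the shares were 0.334%, 0.310%, 0.337% and 0.333%.

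Library 3 stood apart in its sex-linked transcripts, with 1307 counts of the Y-linked Ddx3y against 0 to 3 in the other libraries, and 6 counts of Xist against 8689 to 12160. Across 12475 genes the libraries correlated with Pearson's r of 0.968 to 0.982 on the log scale, and across the 78 genes with 0.975 to 0.985. The 9 genes fixed as germinal centre markers summed to 1145 to 1775 TPM and the 6 B lineage markers to 4259 to 5529 TPM. All 8 T cell markers were above 1 TPM in every library and summed to 638, 289, 236 and 538 TPM. Myeloid markers summed to 116 to 246 TPM, red cell and platelet markers to 72.0 to 215 TPM and plasma cell markers to 1203 to 2674 TPM. The part of these other cells in the levels below was not tested, and in bulk RNA fewer cells of a type cannot be told apart from less RNA per cell.

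Nearly the whole family was detected. In every library, 77 of the 78 genes stood at 1 TPM or more, the exception being Mrpl53. So did 10985 of the 11982 genes tested for variation, a set that had passed a filter on counts and leaves out Mrpl53. The median of the family was 34.1 TPM, against 16.6 TPM over all genes tested. On the log2(TPM + 1) scale the family's median was 5.09 ± 0.19 (SD over 4 libraries). Mean levels were at or above 100 TPM for 6 genes, at or above 50 TPM for 27 and below 10 TPM for 8, counts not set beside all genes.

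**Figure D1:**
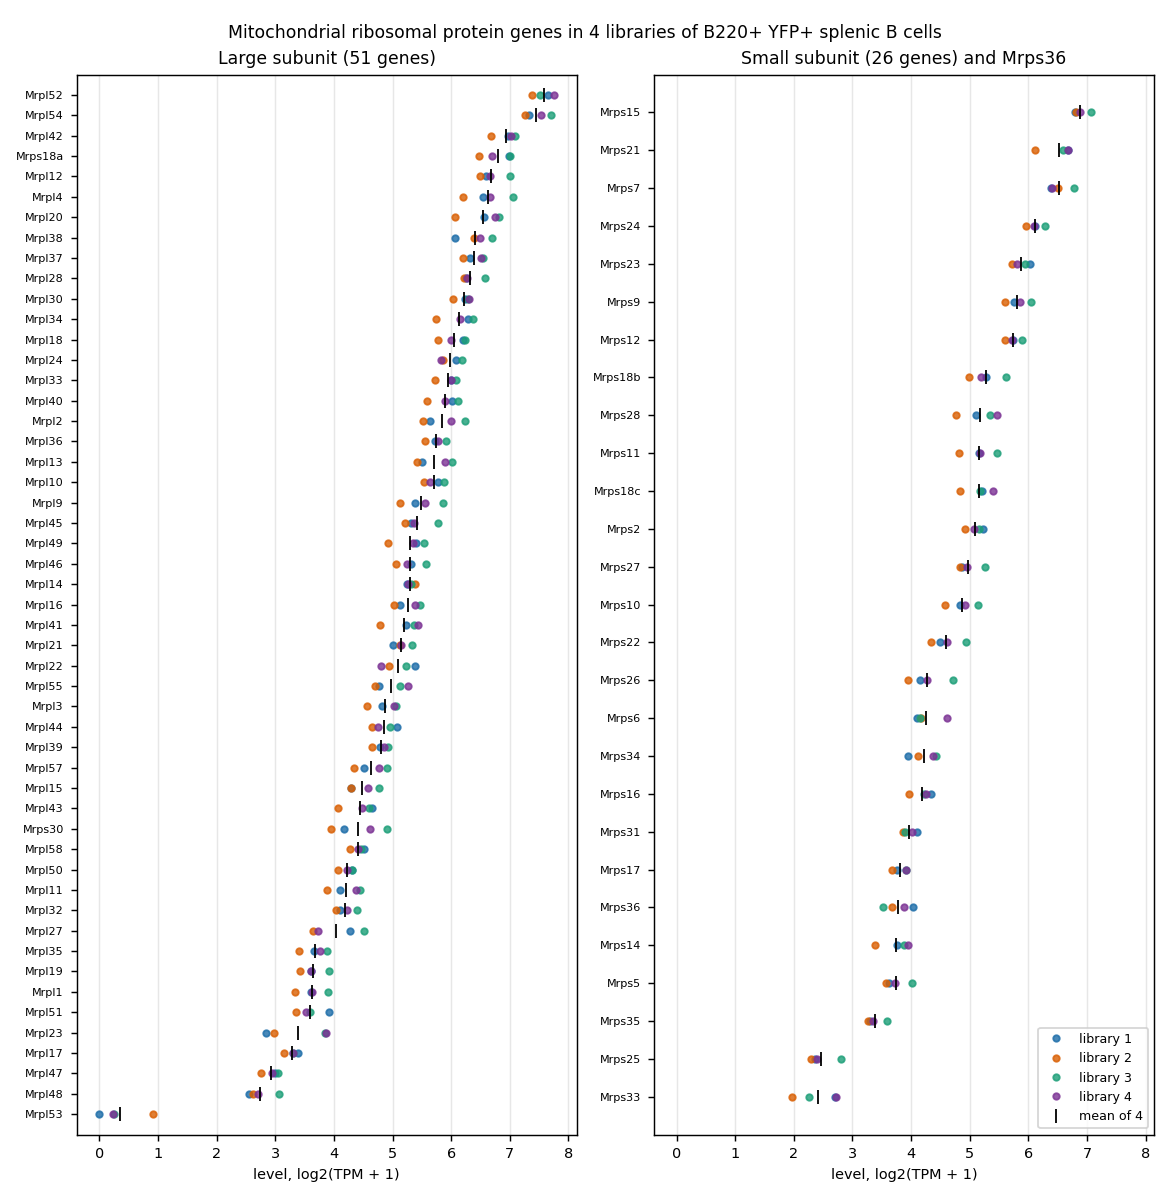
Level of each of the 78 genes on the log2(TPM + 1) scale, with 1 point per library (colours) and a black bar for the mean of 4, sorted by mean TPM within the large subunit (left) and the small subunit with Mrps36 (right). Mrpl53 lies alone at the bottom left, and for the other genes the 4 points lie close together beside the distance from the lowest to the highest gene.

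In TPM, the highest levels were those of large subunit proteins. Without division by length, Mrps7 of the small subunit was highest (99.1 ± 9.27 CPM, against 44.4 ± 5.34 for Mrpl52). Mrpl52, a protein that mitochondria acquired, stood at 201, 166, 181 and 216 TPM in libraries 1 to 4. Mrpl54, near the L7/L12 stalk that recruits translation factors, stood at 159, 152, 207 and 183 TPM, and Mrpl42 at 124, 101, 134 and 129 TPM. Mrpl54 and Mrpl42 are next to each other in the order and their ranges did not overlap, whereas those of Mrpl52 and Mrpl54 did. Within the large subunit, Mrps18a followed (126, 87.7, 127 and 103 TPM), and then Mrpl12 (95.7, 89.0, 127 and 101 TPM), the homologue of the bacterial stalk protein L7/L12. Of the 77 pairs of neighbours in the order of mean TPM, 74 overlapped in their ranges over the libraries. Overlap of ranges does not compare genes within a library, so it does not decide the order. Mrpl48 (4.89, 5.18, 7.36 and 5.50 TPM) and its neighbour Mrps25 (4.13, 3.90, 6.02 and 4.23 TPM) overlapped, yet Mrpl48 was higher in every library.

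In the small subunit, the highest levels were those of Mrps15 (111, 111, 132 and 117 TPM), Mrps21 (101, 68.4, 95.7 and 101 TPM) and Mrps7 (82.7, 90.04, 109 and 83.4 TPM). Mrps7 belongs to the head of the small subunit, where tRNAs pass. Mrps24 (68.6 ± 6.56 TPM) and Mrps23 (57.7 ± 5.39 TPM) came next, and the lowest were Mrps33, Mrps25, Mrps35 (9.42 ± 1.09 TPM), Mrps5 (12.4 ± 1.95 TPM) and Mrps14 (12.6 ± 2.22 TPM). Mrps12, the homologue of the bacterial decoding-site protein S12, was steady at 52.6, 47.4, 58.5 and 51.8 TPM.

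By functional site the levels were spread widely. At the stalk, Mrpl54 (175 ± 25.1 TPM) and Mrpl12 stood above Mrpl10 (51.5 ± 5.51 TPM), which anchors the stalk, and Mrpl11 (17.7 ± 3.22 TPM), which lies at its base. Mrpl53, also placed there, was the lowest gene of all. Around the peptidyl transferase centre, where peptide bonds are formed, Mrpl2 stood at 57.8 ± 13.8 TPM, Mrpl16 at 37.5 ± 5.42, Mrpl3 at 28.4 ± 4.49 and Mrpl27 at 16.04 ± 4.99. Near the exit of the peptide tunnel, Mrpl24 (62.8 ± 7.47 TPM), Mrpl45 (42.2 ± 8.02 TPM), Mrpl22 (33.6 ± 6.39 TPM) and Mrpl44 (28.1 ± 3.98 TPM) stood above Mrpl23, Mrpl17 and Mrpl47 (6.68 ± 0.670 TPM). In the central protuberance, Mrpl38 (85.1 ± 15.2 TPM), Mrpl40 (59.3 ± 9.15 TPM) and Mrpl46 (38.8 ± 5.86 TPM) stood above Mrpl58 (20.4 ± 1.53 TPM), a peptide release factor built into the ribosome, and Mrpl48 (5.73 ± 1.11 TPM). In the head of the small subunit, Mrps9 stood at 55.6 ± 7.46 TPM and Mrps10 at 28.5 ± 4.62 TPM, between Mrps7 and Mrps14. Most proteins of a ribosome are present in 1 copy each, whereas transcripts of proteins from the same site differed here by over 10-fold in TPM, as between Mrpl38 and Mrpl48. That size depends on the lengths used, 1411 bases for Mrpl38 and 4285 for Mrpl48. Without division by length they stood at 66.5 ± 9.46 and 13.6 ± 1.92 CPM.

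The medians of the subunits lay close together. The large subunit's median exceeded that of the small subunit by 0.33 ± 0.08 on the log2(TPM + 1) scale (SD, n = 4), with the same sign in all 4 libraries. The medians of mean level were 37.5 TPM for 51 genes and 29.6 TPM for 26. By ancestry, proteins with bacterial kin had a median of 38 TPM in the large subunit (30 genes) and 35.1 TPM in the small (15 genes). Those acquired in mitochondria had medians of 32.2 TPM (20 genes) and 17.7 TPM (9 genes). The Mrps18 family, in which 3 genes encode relatives of the bacterial protein S18, differed within itself: Mrps18a stood at 111 ± 19.2 TPM, Mrps18b at 38.1 ± 7.31 and Mrps18c at 34.9 ± 5.51. Mrps36 stood at 12.8 ± 2.11 TPM.

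How much of a transcript can be read without doubt differed between genes. Each principal transcript was divided into all of its words of 50 bases, the read length, and a word was called free if it occurred in no transcript of a gene elsewhere and overlapped no exon of another gene. Of the 78 genes, 28 had only free words, 37 had words found elsewhere, mostly in processed pseudogenes, and 28 had words overlapped by another gene. How the authors treated reads with several matches, and whether strand was used, is not given in the sources used here. For comparison, the 14 genes with under 70% of their words free had a median of 18.0 TPM, the 18 genes with 70 to 90% had 37.4 TPM and the 46 genes with at least 90% had 34.4 TPM. Across the 78 genes the free share correlated weakly with the level (Spearman's rho 0.28, as a description).

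**Figure D2:**
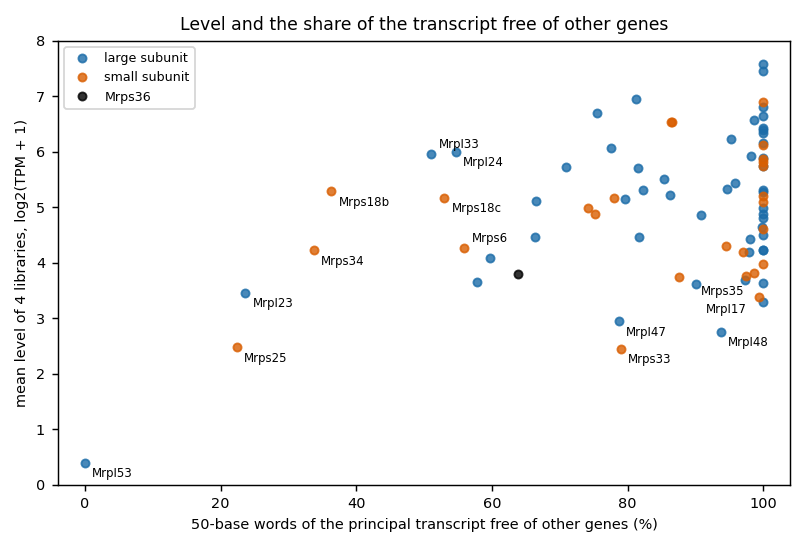
Mean level of each gene on the log2(TPM + 1) scale (4 libraries) against the share of 50-base words of its principal transcript that no other gene shares or overlaps, in percent. Genes under 57% free or under 10 TPM are named, and Mrpl53 (0%), Mrps25 (22.4%) and Mrpl23 (23.6%) combine a low free share with a low level, while Mrpl17 is low with all of its words free.

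Several of the lowest genes were among those hardest to read. Mrpl53 had 0, 5, 1 and 1 counts, and all of its words lie inside Gm42688, a longer protein-coding gene model on the same strand, which had 6, 21, 19 and 11 counts. Reads that fall in both genes belong to neither unambiguously, so the level listed for Mrpl53 (0, 0.896, 0.190 and 0.181 TPM) cannot be read as absence. Mrps25 stood at 4.13, 3.90, 6.02 and 4.23 TPM, and 77.6% of its words are overlapped by Nr2c2 on the opposite strand (475, 330, 312 and 351 counts). Mrps33 stood at 5.52, 2.93, 3.81 and 5.57 TPM, and 21% of its words occur in the pseudogene Gm5776. By contrast Mrpl17 stood at 9.51, 7.90, 8.85 and 8.92 TPM with every word free, and Mrps35 was low in TPM with 99.3% free. Their principal transcripts are long (7300 and 4162 bases). Mrpl17 had 556, 463, 490 and 517 counts, above the median mean count of 417.5 in the family, and Mrps35 had 296, 289, 348 and 302.

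The pseudogene copies of Mrpl23 and Mrps33 are printed because they show why a read may have more than 1 match. The coding sequence of Mrpl23 is identical to that stretch of Mrpl23-ps1 over all 438 bases, and coding bases 1 to 90 are shown for both. For Mrps33 and Gm5776, 99.7% of 318 coding bases are identical, and coding bases 126 to 215 are shown with the single differing base in capitals. The sequences are from the GENCODE M21 transcripts.
Mrpl23: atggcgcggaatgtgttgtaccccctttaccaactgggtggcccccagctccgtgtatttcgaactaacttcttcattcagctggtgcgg
Mrpl23-ps1: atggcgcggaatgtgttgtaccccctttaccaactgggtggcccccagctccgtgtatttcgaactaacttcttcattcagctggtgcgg
Mrps33: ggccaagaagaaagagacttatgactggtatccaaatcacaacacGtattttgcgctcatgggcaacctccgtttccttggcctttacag
Gm5776: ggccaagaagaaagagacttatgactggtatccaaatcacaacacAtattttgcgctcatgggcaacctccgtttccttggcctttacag
The pseudogene rows held few counts: Mrpl23-ps1 had 6, 4, 3 and 7, and Gm5776 had 1, 1, 0 and 1. Mrpl23 itself, a protein at the tunnel exit, had 34, 38, 70 and 75 counts, with 76.4% of its words shared. Mrps36 had 86, 66, 56 and 76 counts, with 36.2% of its words found elsewhere, and its pseudogenes Mrps36-ps1 and Mrps36-ps2 had at most 1 count in any library.

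The length used for TPM moved the level of some genes. With the union of all annotated exons in place of the principal transcript, 22 genes fell by more than 1.5 times and 0 rose by as much. Mrpl33 went from 61.3 to 5.01 TPM, because its exon union spans 7326 bases against 478 for the principal transcript. Mrps10 went from 28.5 to 4.5 TPM, Mrpl13 from 52.1 to 10.1 TPM and Mrpl23 from 9.99 to 1.78 TPM. Mrps18a went from 111 to 33.4 TPM, Mrpl42 from 122 to 27.7 TPM and Mrpl52 from 191 to 90.2 TPM. The ranks of the 78 genes under both lengths correlated with a rho of 0.83. Transcript length itself correlated with TPM at a rho of -0.52 and with CPM at 0.22, as a description across 78 genes.

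Beside related gene lists, the family, Mrps36 included, lay below the respiratory chain that the mitochondrial ribosome serves and above the mitochondrial translation factors. The difference between medians, on the log2(TPM + 1) scale, was -1.38 ± 0.06 (SD, n = 4) against 94 nuclear genes named for the respiratory chain and ATP synthase, a list that includes assembly factors of complex I. It was -1.69 ± 0.04 against 83 genes of cytosolic ribosomal proteins. Against 15 mitochondrial translation factors it was 0.84 ± 0.17, against 23 assembly factors of the mitochondrial ribosome 1.22 ± 0.17 and against 17 mitochondrial tRNA synthetases 0.80 ± 0.16. Each difference had the same sign in all 4 libraries. These sizes depended on the scale. With CPM in place of TPM the difference was -0.59 ± 0.07 from oxidative phosphorylation, -1.01 ± 0.03 from cytosolic ribosomal proteins and 0.51 ± 0.16 from translation factors. With CPM it was 0.065 ± 0.069 from the synthetases, no larger than the spread between libraries. With means in place of medians it was -0.80 from oxidative phosphorylation and 0.72 from assembly factors. The cytosolic ribosomal protein genes ranged from 0 (Rpl10l) to 2600 TPM (Rps15), with Rpl24 at 4.18 and Rpl5 at 13.3 TPM. Words shared with pseudogenes were not counted for that list. The part of reads with several matches in its median was not tested.

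**Figure D3:**
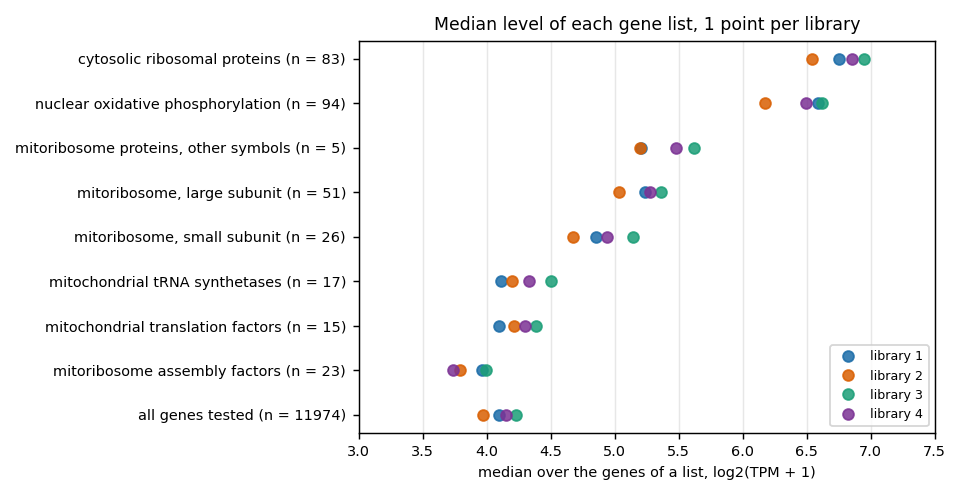
Median over the genes of each list on the log2(TPM + 1) scale, with 1 point per library (colours) and the number of genes measured in brackets. Both subunits of the mitochondrial ribosome lie between the lists of cytosolic ribosomal proteins and oxidative phosphorylation above and the lists of translation factors, tRNA synthetases and assembly factors below. Library 2 is lowest in both subunits, as it is for cytosolic ribosomal proteins, oxidative phosphorylation and all genes tested.

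The 5 proteins of the mitochondrial ribosome whose symbols do not begin with Mrp lay in the same range as the family. Aurkaip1 stood at 90.9 ± 8.40 TPM, Chchd1 at 77.7 ± 17.2, Ptcd3 at 40.8 ± 6.05, Dap3 at 31.4 ± 5.21 and Gadd45gip1 at 11.1 ± 1.85. Among the translation factors, Oxa1l, which inserts new proteins into the inner membrane, was highest (76.7 ± 7.44 TPM). The elongation factors Tufm (18.0 ± 1.6 TPM), Tsfm (29.5 ± 4.18 TPM) and Gfm1 (23.7 ± 3.50 TPM) and the initiation factor Mtif2 (22.8 ± 3.96 TPM) were alike, and the initiation factor Mtif3 was lower (3.75 ± 1.19 TPM). Among the assembly factors, C1qbp, a matrix protein also known in many other roles, stood highest at 251 ± 63.6 TPM, followed by Dhx30 (51.6 ± 8.38 TPM) and Mettl17 (49.3 ± 8.71 TPM), and Gtpbp10 stood lowest (2.47 ± 0.494 TPM). Among the tRNA synthetases, Lars2 stood highest at 103, 160, 151 and 198 TPM.

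Of the 13 mRNAs that the mitochondrial ribosome translates, 7 stood between 20641 TPM (mt-Nd5) and 72390 TPM (mt-Co1), among them mt-Cytb and 4 more genes of complex I, and the other 6 at or near 0. In the deposited tables mt-Co2, mt-Atp8 and mt-Nd4l were listed at 0 in every library, and mt-Nd3 (3.57 TPM), mt-Atp6 (0.139 TPM) and mt-Co3 (0.0818 TPM) were near 0. These genes are known to be transcribed as parts of long precursors, mt-Nd6 from one strand and the other 12 from the opposite strand, and the nuclear genome carries copies of parts of the mitochondrial genome. The part of reads with several matches in these zeros was not tested, and no level of these 6 genes is read from the tables. The strand setting is not given, so reads of the opposite strand cannot be told apart at mt-Nd6, which is among the 7. Its level is not read either.

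Variation between libraries was tested over 11982 genes with edgeR's quasi-likelihood dispersions, which ask whether a gene varied more than genes of its abundance. Of the 77 genes of the family that were tested, 0 passed an adjusted p of 0.05 (Benjamini-Hochberg), against 0.00835% of all genes, which was 1 gene. At an unadjusted p under 0.05, 0 of 77 passed, against 4.97% of all genes. DESeq2 marked 0 of 77 as dispersion outliers, against 1.33% of all genes. The smallest unadjusted p in the family was 0.153 (Mrps30), with an adjusted p of 0.990 in edgeR's test. On simulated data for this design, 2.0% of genes with an added 2-fold difference between libraries were recovered after adjustment and 64% before it, and 77.5% and 99.5% of genes with a 4-fold difference. In the simulation every gene had the spread usual for its abundance, and each changed gene was raised in 1 library. Genes of low level were not changed. A 2-fold change of that kind was mostly not detectable after adjustment, and other patterns between libraries were not simulated. Folds between 2 and 4 were not simulated, and the count of 0 does not show that levels were equal.

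The size of the spread was small in most of the family. The ratio of the highest to the lowest library, in CPM normalised by the TMM method, had a median of 1.25 over the 77 genes and 1.42 over all genes tested. It was under 1.5 for 71 of 77 genes (92.2%), against 58.6% of all genes tested. The 4 libraries lay within 2-fold for 76, a count not set beside all genes. The medians of the mean count were alike, at 417.5 in the family and 361 over all genes tested. The lowest mean count of a tested gene of the family was 39. Ratios were not compared at matched counts, so the part of genes with few reads in this difference was not tested. The median coefficient of variation was 10.2% against 4.89% given by counting alone, and over all genes tested it was 15.5% against 5.27%. With any 1 library left out, which can only lower a ratio of this kind, the median was 1.18 to 1.23 and 71 to 73 of 77 genes were under 1.5.

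**Figure D4:**
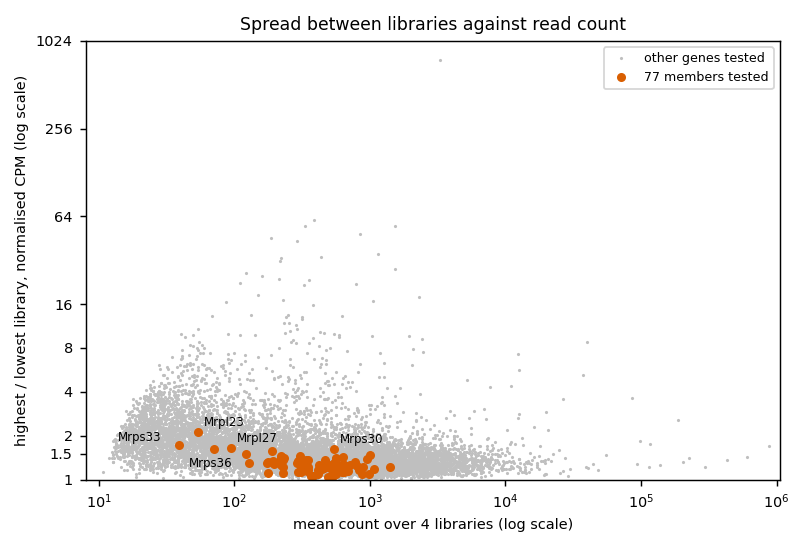
Ratio of the highest to the lowest library in TMM-normalised CPM (log scale) against mean count (log scale) for the 77 tested genes of the family (orange) and the other genes tested (grey). Most orange points lie under 1.5 at mean counts from 100 to 1408, and the 5 genes with the largest ratios are named.

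The steadiest gene was Mrpl39, with 34.5, 34.2, 33.9 and 35.1 normalised CPM and a ratio of 1.03. Mrpl36 (27.2, 26.2, 27.6 and 26.9 normalised CPM), Mrps12 (26.4, 25.9, 26.2 and 24.9), Mrps24 (38.5, 37.8, 38.9 and 36.6) and Mrps17 (35.9, 37.0, 36.2 and 38.5) had ratios of 1.06 to 1.07. In these genes no library stood out. Over the family, 1 library stood far from the other 3 by Dixon's gap criterion in 4 of 78 genes, against 5.2% of all genes tested.

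The largest ratio was that of Mrpl23 (2.13), with 2.41, 2.93, 4.67 and 5.14 normalised CPM (unadjusted p = 0.25, edgeR adjusted p = 0.990). Libraries 1 and 2 were low and libraries 3 and 4 high, at 34 to 75 counts. Mrps33, with 3.48, 2.01, 2.14 and 3.36 normalised CPM, had a ratio of 1.73 and was high in libraries 1 and 4. Mrpl27, at the peptidyl transferase centre, had 7.88, 5.40, 8.41 and 5.07 normalised CPM and a ratio of 1.66, and Mrps36 had 6.10, 5.09, 3.74 and 5.21 and a ratio of 1.63. These 4 genes had at most 126 counts in any library, and 21 to 76.4% of their words occur elsewhere. Mrps30 had more reads, with 32.3, 29.8, 48.6 and 42.5 normalised CPM and a ratio of 1.63, and 18.4% of its words are overlapped by B430218F22Rik on the opposite strand. Libraries 3 and 4 were high for Mrps30, and without library 3 its ratio was 1.43.

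The family shifted together by a small amount. Each gene was compared with its own mean over the libraries, on the log2 scale of normalised CPM. The median shift over the 77 genes was 0.01 in library 1, -0.07 in library 2, 0.07 in library 3 and -0.00 in library 4, while the median over all genes tested was within 0.01 of 0 in every library. In library 2, 15 of 77 genes (19.5%) were above their own mean, against 49.4% of all genes tested, and in library 3, 56 (72.7%), against 51.1%. Library 2 held the highest value for 4 genes (background 25.1%) and the lowest for 33 (background 26.7%). Library 3 held the highest value for 31 (background 27.8%) and the lowest for 13 (background 26.5%). Library 1 held the highest for 24 (background 28.9%) and the lowest for 18 (background 28.4%), and library 4 the highest for 18 (background 18.3%) and the lowest for 13 (background 18.4%).

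**Figure D5:**
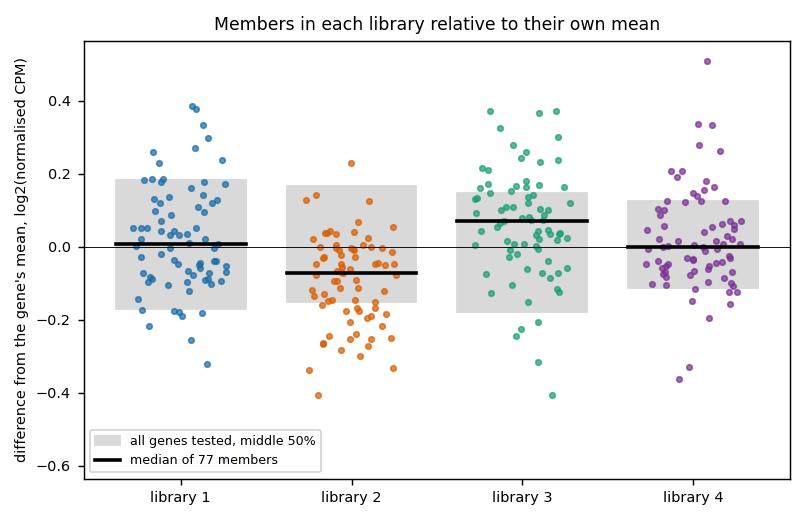
Difference of each of the 77 tested genes from its own mean over the 4 libraries, in log2 normalised CPM, by library. Coloured points are genes, black lines their medians and grey boxes the middle 50% of all genes tested, and the black line is lowest in library 2 (-0.07) and highest in library 3 (0.07), inside the grey box in each library.

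Scaled to library totals, the median of all genes itself shifted to -0.08 in library 2, and relative to the median of all genes the family stood at -0.07 in library 2 and 0.06 in library 3. A scaling moves every gene of a library alike, so these relative values cannot depend on it. With library totals, 60 of 77 genes were lowest in library 2 (background 38.2%). Without library 2 the shift of library 3 was 0.02, and with totals that leave out mitochondrial-genome and immunoglobulin genes it was 0.03. Other lists moved between these libraries too. The 8 genes of dividing cells, among them Mki67, Top2a and Mcm6, had median shifts of 0.01, -0.33, 0.32 and 0.02 in libraries 1 to 4. Nuclear genes of oxidative phosphorylation had 0.08, -0.12, 0.04 and 0.02, and cytosolic ribosomal proteins 0.01, -0.03, -0.00 and 0.05. Of 3 lists of the organelle's own translation, the tRNA synthetases and assembly factors went up in library 2, and the translation factors hardly moved. Their shifts were -0.14, 0.14, 0.04 and 0.03 for the tRNA synthetases, -0.07, 0.10, 0.04 and -0.08 for the assembly factors, and -0.02, 0.03, 0.10 and -0.08 for the translation factors. The 5 ribosomal proteins with other symbols had -0.12, -0.03, 0.17 and -0.01. Germinal centre markers had 0.22, -0.16, 0.10 and -0.11. The mitochondrial mRNAs that were tested had -0.05, 0.28, -0.14 and -0.08, the opposite order to the ribosomal proteins for libraries 2 and 3. Genes induced by tissue dissociation had 0.12, 0.73, -1.02 and -0.05, T cell markers 0.74, -0.26, -0.87 and 0.44, and plasma cell markers 0.26, 0.39, -0.74 and 0.13. The part of these in the shift of the ribosomal protein genes was not tested.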

How the data were processed

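Poly(A)-selected RNA of 4 libraries was sequenced as single reads of 50 bases on a DNBseq platform (20 M reads intended), per the labels' protocols. FastQC, STAR 2.5.2b, featureCounts 1.6.0 and the mm10 build are named in the submitters' processing notes. The authors deposited raw counts, whole numbers of reads for each gene. The annotation release, strand setting and treatment of reads with several matches are not given in the sources used here.

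Of 37646 identifiers, 37536 matched GENCODE M21 (GRCm38, the assembly named mm10) and 110 did not. TPM was computed from the counts with the length of the principal transcript (lowest APPRIS class, then basic set, then longest). That length was chosen after values with the exon union had been seen. The 50-base words and their bins, the ratio bound of 1.5, the pseudogene sequences and the neighbour genes shown were also chosen after values were seen. The members and gene lists were chosen with earlier results of these data known.

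Variation was tested with edgeR 4.0.16 (R 4.3.3): an intercept-only quasi-likelihood fit, TMM normalisation and filterByExpr. Each gene's quasi-dispersion over its trend was compared with the upper tail of F, with Benjamini-Hochberg adjustment over 11982 genes and a threshold of 0.05. The common biological coefficient of variation was 21.8%. With edgeR's robust option, the largest prior degrees of freedom were used for all genes, a choice made after a first run with gene-specific values gave 0 calls. DESeq2 1.42.0 was an alternative. The step was tested on simulated data with 200 changed genes per fold. Levels and differences between lists were described without a test, with a pseudocount of 1 on the log2 scale. Named genes were the 5 highest and 5 lowest per subunit, the 5 largest and 5 smallest ratios, genes under 1 TPM, genes at the listed sites of the ribosome, the Mrps18 family, Mrps30 and Mrps36; Mrpl33 and Mrpl13 (exon-union length), the members named with neighbours (Mrps11, Mrps34, Mrpl43) and Mrpl51 (closing section) were added after their values were seen. Python 3.11.15 was used for the rest. Reads carry no molecular identifiers, so intervals and floors describe counting error only.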

Additional observations from a re-analysis of the deposited data

Results flagged for a closer look

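In 4 of the 78 genes, 1 library stood far from the other 3, with a gap to the nearest of them that took a larger part of the whole range than Dixon's 95% value for 4 samples allows. Chance alone marks about 1 group in 20, and the same rule marked 5.2% of all 11982 genes tested, so the count for the family is at the background. Mrpl12, the stalk protein, had 84.3 normalised CPM in library 3 and 71.6 to 72.5 in the others. Mrpl45, at the tunnel exit, had 66.4 in library 3 and 53.3 to 54.0 in the others. Mrps25 had 18.5 in library 3 and 14.0 to 14.7 in the others. Mrpl51 had 27.5 in library 1 and 19.1 to 19.7 in the others.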

How the results depend on the processing

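The count of 0 of 77 genes held with edgeR's RLE size factors, a filter at a mean of 1 CPM, no filter (78 genes), edgeR's robust option, DESeq2's outlier rule and each library left out. DESeq2's rule, a different measure from an adjusted p, marked 159 of all genes. Over all genes edgeR's calls went from 1 to 262 without a filter and 63 with the robust option. With 1 library left out they went from 0 to 19 (0 without library 2, 19 without library 3, 3 without library 4). The cause was not tested. No result reversed.

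The family's median level (5.09 on the log2 scale) was 4.87 as CPM, 5.89 without mitochondrial-genome and immunoglobulin genes in the total, 4.73 with exon-union lengths and 5.34 per free word, and 5.03 to 5.18 with 1 library left out. Large minus small subunit (0.33) was 0.46 as CPM, 0.52 with exon-union lengths, 0.44 over genes with at least 90% free words and 0.30 to 0.36 with 1 library left out. Members minus oxidative phosphorylation (-1.38) was -0.80 with means, -0.59 as CPM, -1.10 with exon-union lengths and -1.40 to -1.35 with 1 library left out. Members minus cytosolic ribosomal proteins (-1.69) was -1.01 as CPM, -1.22 with exon-union lengths and -1.71 to -1.67. Members minus translation factors (0.84) was 1.11 with means, 0.51 as CPM, 1.06 with exon-union lengths and 0.78 to 0.92. Members minus assembly factors (1.22) was 0.72, 0.83, 1.002 and 1.15 to 1.28 in the same order. Members minus tRNA synthetases (0.80) was 0.065 as CPM and 0.73 to 0.86 with 1 library left out. The share of counts (0.247%) was 0.329% without mitochondrial-genome and immunoglobulin genes and 0.240 to 0.256% with 1 library left out. The shift of library 2 (-0.07) was -0.15 with library totals, where 60 of 77 genes were lowest in it, as were 38.2% of all genes tested. With 1 library left out the shifts were -0.04 to 0.03 in library 1, -0.09 to -0.06 in library 2, 0.02 to 0.08 in library 3 and -0.02 to 0.01 in library 4. The level of 47 of 78 genes moved by more than its SD with exon-union lengths, of 77 without mitochondrial-genome and immunoglobulin genes in the total, and of 0 with 1 library left out.

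The exon-union lengths, free words and shifts with a library left out were chosen after seeing the data. No paired analysis was possible because there is 1 group. Depth limits Mrpl53 (at most 5 counts), Mrps33 and Mrpl23.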

Other observations

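In the 6 related lists (respiratory chain, cytosolic ribosome, mitoribosome proteins with other symbols, translation factors, assembly factors and tRNA synthetases), 3 of 226 genes tested (1.33%) varied at an unadjusted p under 0.05, fewer than the 4.97% of all genes, and 0 after adjustment (edgeR adjusted p from 0.708 to 0.899). Rpl10a, of the cytosolic ribosome, stood at 97.1, 143, 211 and 215 TPM and Atp5l, of the ATP synthase, at 11.7, 21.8, 45.8 and 44.2 TPM, both lower in libraries 1 and 2 than in libraries 3 and 4, as Mrpl23 was (34, 38, 70 and 75 counts). Rpl30 ran the other way, at 88.1, 77.2, 40.9 and 42.5 TPM. These genes were singled out after their values were seen, and the labels give no batch that separates libraries 1 and 2 from 3 and 4. Of the words of Mrpl23, 76.4% are shared with a pseudogene. For Rpl10a, Atp5l and Rpl30 the shared words were not counted, and the part of reads with several matches in any of these values was not tested.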
